A study of Sus scrofa with 6 samples.

Results

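The genes of the proteasome and the ubiquitin-conjugating enzymes were followed across 6 arrays of porcine cartilage and cartilage cells. The proteasome group holds every gene whose single annotated symbol starts with PSMA, PSMB, PSMC, PSMD or PSME, and the conjugating enzyme group every gene whose symbol starts with UBE2. The rule found 37 PSM genes and 24 UBE2 genes, 61 of the 6765 genes named on the array. Signals served only to choose 1 probe set per gene, the brightest by its log2 signal averaged over all 6 arrays. All 37 PSM genes and 23 UBE2 genes lay above a signal floor of 36.1 on at least 2 arrays and were tested among 5598 genes. The remaining gene, UBE2D4, had signals of 15.2, 13.0 and 26.4 on the growth plate arrays and 15.1, 18.0 and 33.2 on the articular arrays, all under the floor, and was not tested. PSMB9, UBE2L6 and UBE2S were not analysed here.

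The samples came from pig growth plate cartilage, which lengthens the growing bone, and pig articular cartilage, which lines the joints. Each cartilage was hybridised as native tissue and as chondrocytes that had been isolated with collagenase and cultured to day 10 or day 20 of differentiation. Cultures had serum and antibiotics, no further supplement, and were kept at 37 °C under 5% oxygen and 5% carbon dioxide. Each of the 6 conditions had 1 array, and the age, breed and number of animals are not given in the sources used here.

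Ubiquitin is attached to proteins by a relay of an activating enzyme (E1), a conjugating enzyme (E2, most of them named UBE2) and a ligase (E3). Chains of some linkages send the protein to the proteasome, while other linkages signal, and relatives of ubiquitin such as NEDD8 travel through E2 enzymes of their own. The proteasome is a barrel of alpha rings, which gate the entry, and beta rings, which hold the proteolytic sites, capped by a regulatory particle of ATPases and non-ATPase subunits or by activators of the PSME family. In cartilage, ubiquitin-dependent turnover acts on regulators of chondrocyte differentiation and oxygen response, among them RUNX2 and HIF1A. Interferon exchanges catalytic beta subunits for immunoproteasome forms that favour peptides for antigen presentation.

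Signals below are linear intensities, given in the order native, day 10 and day 20. Log2 differences come from an additive limma model of tissue and stage over all 6 arrays, and ± is the standard error. Its residual is how far the arrays depart from a tissue effect plus a stage effect, on 2 degrees of freedom, since no condition was replicated. P-values therefore do not measure the spread between animals. Calls needed both a difference of 2-fold or more and a p below 0.05 after Benjamini-Hochberg adjustment over all genes tested.

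The 6 arrays had nearly equal trimmed mean signals, and their median signals were 67.5 to 71.5 except for native articular cartilage, at 59.55. That array also stood apart from the rest, with a mean correlation of 0.890 to the other arrays over the genes tested, against 0.930 to 0.939 for the other 5. Of 8 chondrocyte markers, 6 were on the array, and all 6 lay above the floor on every array. Markers of macrophages (5 of 7 on the array), T and NK cells (4 of 6), endothelium (5 of 6) and B cells (1 of 4) had at most 1 gene above the floor on any array. In bulk RNA, fewer cells of a type and less RNA per cell cannot be told apart.

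No PSM gene was called in any of the 3 contrasts. These set growth plate against articular cartilage, culture (both days averaged) against native tissue, and day 20 against day 10, each as the first minus the second. Over all genes the limma fit called 3 (0.0536%), 0 and 0. At an unadjusted p under 0.05 it listed 2, 3 and 5 of the 37 PSM genes, against 10.7%, 19.3% and 14.6% of all genes. The smallest adjusted p of a PSM gene was 0.401, 0.185 and 0.289 in the 3 contrasts. Proteasome genes varied less than most: the median standard deviation of a PSM gene over the 6 arrays was 0.27 on the log2 scale, against 0.42 for all genes tested and 0.35 for the 1838 genes with a mean signal of at least 1000. The highest and the lowest array of a gene were at least 2-fold apart for 8 of 37 PSM genes, or 21.6%, against 56.7% of all genes and 44% of the bright ones.

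**Figure D1:**
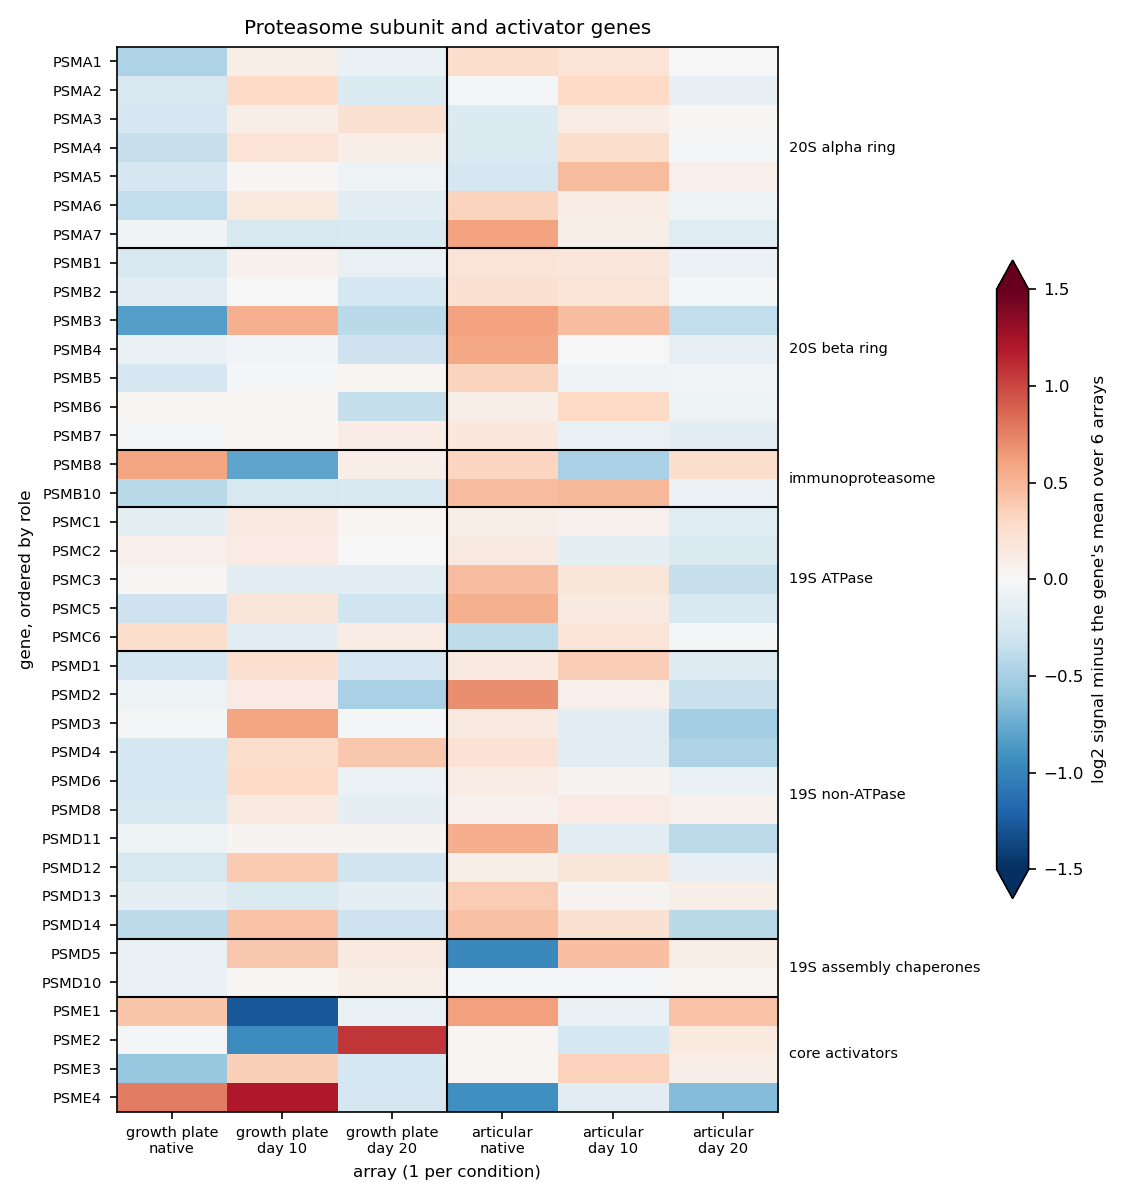
Colour shows each tested PSM gene's log2 signal minus its own mean over the 6 arrays, 1 row per gene in order of role and 1 column per array. The native growth plate column is mostly blue and the native articular column mostly red, with medians of -0.16 and 0.16, and PSME1, PSME2, PSMB8 and PSME4 have the deepest colours of their roles.

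In native tissue most proteasome genes had a lower signal in growth plate than in articular cartilage. The median log2 difference between the native arrays was -0.37, with 33 of 37 PSM genes lower in growth plate, where 50.2% of all genes were lower and the median of all genes was -0.01. Among the 1838 bright genes the median was -0.14, with 1085 lower. The native difference was not particular to proteasome genes. Medians were -0.61 for 10 chaperones, -0.57 for 2 ubiquitin genes and -0.44 for 12 genes of interferon and antigen presentation. They were -0.32 for 5 proteasome assembly factors and inhibitors and -0.30 for 10 genes of ubiquitin and ubiquitin-like activation. Mitotic genes, ligases, the anaphase-promoting complex and deubiquitinases went the other way, at 1.82, 0.22, 0.24 and 0.05. All 7 alpha subunits, all 7 beta subunits, all 10 non-ATPase subunits and 4 of 5 ATPases were lower, with role medians of -0.20, -0.43, -0.45 and -0.24. In the cultures this was not seen: the median of the 37 genes was 0.01 at day 10 and -0.04 at day 20. Whether the native pair differs from the cultured pairs was not tested, and each pair is 1 array against 1. A fit to the 4 cultured arrays gave a tissue median of -0.03 and called no PSM gene, where 2.78% of all genes were called.

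The size of the native difference moved with the scaling of the arrays. Quantile normalization gave a median of -0.29 with 30 of 37 genes lower, median centring -0.66 with 34 lower, and scaling on 9 spiked control probe sets -0.08 with 21 lower. The medians of all genes in the native pair were -0.08, -0.29 and 0.23 under these settings, so the PSM median lay below that of all genes under each. Of all genes, 3055 of 5598, 3733 of 5598 and 1964 of 5620 were lower in native growth plate. On the native articular array the spiked controls stood 0.21 above their mean over the arrays and the median signal was the lowest of the 6. The spiked controls were furthest from their mean on the growth plate day 10 array, at -0.32, which enters the day comparisons below. The part of these offsets and of the median signal in the results was not tested.

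The catalytic core illustrates the small range. PSMB5, the chymotrypsin-like subunit, had signals of 5855, 6886 and 7090.4 on the growth plate arrays and 8754, 6703 and 6742 on the articular arrays. PSMB6, the caspase-like subunit, had 3418, 3407 and 2608 on the growth plate arrays and 3539.7, 4095 and 3158 on the articular arrays. PSMB7, the trypsin-like subunit, had 6477, 6715 and 7129 on the growth plate arrays and 7359, 6133 and 5918 on the articular arrays. For PSMB5 the native articular array was the highest and the native growth plate array the lowest, and the 4 cultured arrays lay close together between them. PSMB6 was lowest at day 20 in both cartilages, and the tissues overlapped for each of the 3 genes. Their growth plate minus articular log2 differences were -0.16 ± 0.19, -0.20 ± 0.16 and 0.07 ± 0.16.

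Larger tissue differences were those of an activator and of single subunits. PSME4, which encodes a large nuclear cap of the core particle, had signals of 1629, 2188 and 805 on the growth plate arrays and 506, 857 and 611 on the articular arrays. Growth plate was the higher at each of the 3 stages, with a fitted difference of 1.15 ± 0.29 (adjusted p = 0.401). PSME4 was also the PSM gene with the largest difference in this contrast. Its day 20 growth plate signal was below the day 10 articular signal, so the tissues overlapped across stages.

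The next 3 towards growth plate were PSMD3, a lid subunit, PSMD5, a chaperone of base assembly, and PSMD4, a ubiquitin receptor. PSMD3 had signals of 395, 608 and 398 on the growth plate arrays and 441, 356 and 282 on the articular arrays. PSMD4 had 578, 829 and 913 on the growth plate arrays and 805, 619 and 500.2 on the articular arrays. Growth plate was the higher for both genes in culture and the lower in native tissue. The fitted differences were 0.37 ± 0.29 for PSMD3, 0.28 ± 0.24 for PSMD5 and 0.27 ± 0.31 for PSMD4, and none of the adjusted p was below 0.641.

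Towards articular cartilage the leading PSM genes were PSME1, PSMB10, PSMB3 and PSMA7. PSME1, a subunit of the interferon-inducible ring activator, had signals of 1692, 522 and 1184 on the growth plate arrays and 1939.7, 1185 and 1700.4 on the articular arrays, and articular cartilage was the higher at every stage. Its tissue difference was -0.63 ± 0.25 (adjusted p = 0.46). PSMB10, the inducible replacement of PSMB7, had signals of 328, 367 and 372 on the growth plate arrays and 599, 616 and 408 on the articular arrays, again with articular the higher at every stage, and a difference of -0.58 ± 0.27 (adjusted p = 0.491). PSMA7, an alpha subunit, had 6799, 5979.6 and 6007 on the growth plate arrays and 10709, 7490.3 and 6230.2 on the articular arrays. It stood highest in native articular cartilage and differed by -0.34 ± 0.17 (adjusted p = 0.521). PSMB3, a non-catalytic beta subunit, had signals of 253, 647 and 339 on the growth plate arrays and 679, 618 and 348 on the articular arrays. The native arrays of PSMB3 were 2.68-fold apart and its culture arrays were within a log2 difference of 0.07 and -0.04 of each other, so the fitted -0.46 ± 0.36 rests on the native pair.

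**Figure D2:**
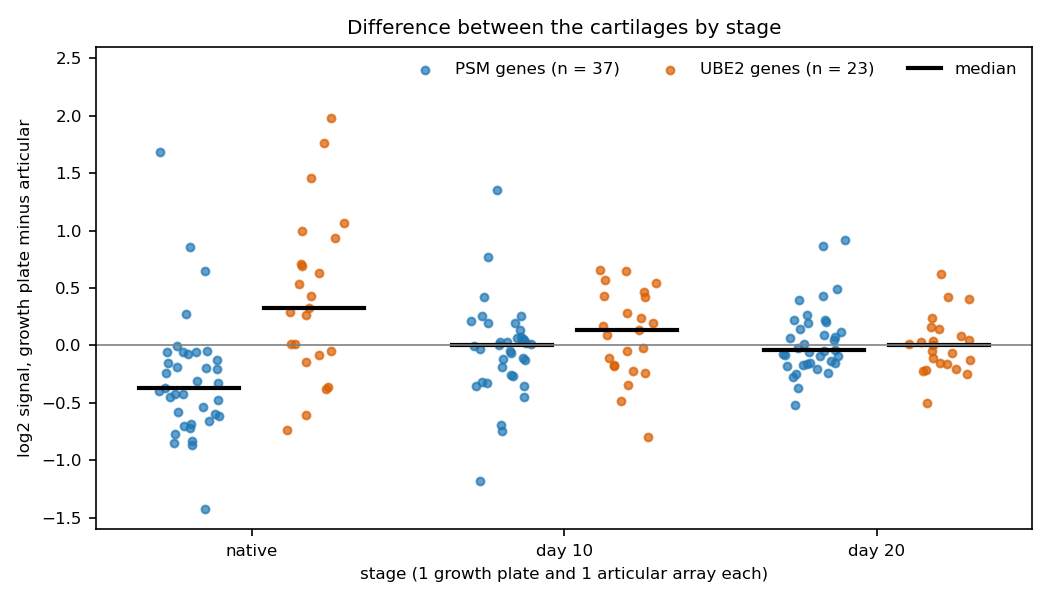
Each point is a tested gene's log2 signal in growth plate minus that in articular cartilage at 1 stage, 37 PSM genes in blue and 23 UBE2 genes in orange, and black bars are medians. In native tissue the PSM median is -0.37 and the UBE2 median 0.33, while at day 10 and day 20 all 4 medians lie between -0.04 and 0.13.

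Culture against native tissue gave opposite medians in the 2 cartilages. The median PSM log2 difference was 0.28 for growth plate cells at day 10 and 0.10 at day 20, and -0.07 and -0.27 for articular cells. The 1838 bright genes had medians of the same signs, so the opposite signs are not particular to proteasome genes. These were 0.02 and 0.05 for growth plate cells and -0.07 and -0.09 for articular cells. The PSM median for articular cells at day 10 became 0.13 under scaling on spiked controls. The other 3 PSM medians kept their sign under each scaling. These pairs share the native arrays with the native tissue comparison and are not a second observation of it. Both tissues together gave a fitted median of 0.03 with 20 of 37 genes above 0, against a median of 0.06 and 54.6% of all genes above 0. Without native articular cartilage the fitted median was 0.23, and without native growth plate it was -0.16.

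PSMD5 led the genes with a higher signal in culture. It had signals of 1560, 2226 and 1855 on the growth plate arrays and 863, 2297 and 1800.3 on the articular arrays, with native articular cartilage the lowest and both native arrays below all 4 cultures, and a difference of 0.81 ± 0.25 (adjusted p = 0.185). The alpha subunits PSMA4 and PSMA5 and the activator PSME3, whose product is nuclear, followed. PSMA4 had signals of 3045, 4452 and 4157 on the growth plate arrays and 3330.4, 4655 and 3824 on the articular arrays. PSMA5 had 1473, 1788 and 1670.5 on the growth plate arrays and 1480, 2435 and 1855 on the articular arrays. For both alpha genes the 2 native arrays were below all 4 cultures, and the culture differences were 0.42 ± 0.16 (adjusted p = 0.251), and 0.38 ± 0.19 (adjusted p = 0.34). PSME3 had 328, 625 and 404 on the growth plate arrays and 495, 616 and 523 on the articular arrays, lowest in native growth plate, and differed by 0.41 ± 0.26 (adjusted p = 0.434).

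The lowest values in culture relative to native tissue belonged to PSME1, PSMB8, PSMD2 and PSMA7. PSME1 differed by -0.78 ± 0.26 (adjusted p = 0.197). PSMB8, the inducible replacement of PSMB5, had signals of 243, 92.8 and 173 on the growth plate arrays and 201, 115 and 194 on the articular arrays and differed by -0.68 ± 0.30 (adjusted p = 0.28). For PSMB8 both native arrays were above all 4 cultures. PSMD2, a scaffold of the regulatory particle, had 2136, 2460.5 and 1612 on the growth plate arrays and 3656, 2372 and 1797 on the articular arrays, with native articular cartilage well above the other 5 arrays, and differed by -0.46 ± 0.23 (adjusted p = 0.325). PSMA7 differed by -0.42 ± 0.19 (adjusted p = 0.284).

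Fits that leave out a native array called single genes in this contrast. Without native growth plate, PSMD5 was called higher in culture at 1.24 ± 0.22 with an adjusted p of 0.00175, where 13.6% of all genes were called higher. Without native articular cartilage, PSME1 was called lower at -1.11 ± 0.27 with an adjusted p of 0.0373, where 2.15% of all genes were called lower. In each of these fits the culture difference is that of 1 cartilage against its own single native array.

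Between day 10 and day 20 most proteasome genes had a lower signal at day 20. In growth plate cells 24 of 37 genes were lower with a median of -0.17, and in articular cells 31 were lower with a median of -0.24, against 51.8% and 49.2% of all genes. The 2 day pairs share no array. In both pairs 24 of 37 PSM genes were lower, or 64.9%, against 35.9% of all genes. These 24 included 8 of 10 non-ATPase subunits, 5 of 7 alpha, 5 of 7 beta and 3 of 5 ATPase subunits. Median centring left 19 of 37 lower in growth plate cells and 31 in articular cells, where 2440 and 2586 of all 5598 genes were lower. Quantile normalization left 29 and 32, where 2820 and 2805 of all 5598 genes were lower. Scaling on spiked controls left 34 and 34, where 4021 and 3425 of all 5620 genes were lower. The 3' to 5' signal ratio of the actin control was 3.27 and 4.58 in the growth plate and articular day 10 cultures and 5.55 and 8.75 at day 20. The same ratio of the GAPDH control went the other way, from 1.49 and 1.44 at day 10 to 0.995 and 1.15 at day 20, and that of the EF1a control was 1.25 and 1.45 against 1.31 and 1.51. These ratios are a sign of RNA integrity and of labelling, and their part in the result was not tested.

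PSME2, PSME1 and PSMB8 had a higher signal at day 20 than at day 10 in both cartilages. PSME2, the partner of PSME1 in the ring activator, had signals of 1419, 750.4 and 3048 on the growth plate arrays and 1479, 1213 and 1611 on the articular arrays. The day 20 growth plate culture was the highest of the 6 arrays and the day 10 growth plate culture the lowest, 4.06-fold apart, while the articular cultures differed by 0.41 on the log2 scale. The fitted difference of PSME2 was 1.22 ± 0.40 (adjusted p = 0.289). PSME1 differed by 0.85 ± 0.30 (adjusted p = 0.308), with log2 differences of 1.18 in growth plate and 0.52 in articular cells. PSMB8 differed by 0.82 ± 0.35 (adjusted p = 0.35) and was at least 1.5-fold higher at day 20 in both cartilages, as 7.4% of all genes were. PSME1 and PSME2 are 2 positions apart in the gene order of the RefSeq assembly Sscrofa11.1. PSMD10, a chaperone of base assembly, was the next gene upward, at only 0.07 ± 0.21, and -0.18 under scaling on spiked controls.

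Among the inducible genes PSME1, PSME2 and PSMB8 each had their lowest signal in the growth plate day 10 culture. PSMB10 did not share that pattern, with its lowest signal in native growth plate and a day difference of -0.29 ± 0.33 (adjusted p = 0.739). Markers of macrophages summed to 51.5 to 108 and of T and NK cells to 11.4 to 72.2 over the 6 arrays, with at most 1 gene above the floor. Fibroblast markers (4 of 5 on the array, all above the floor) summed to 5108 and 21160 at day 10 and day 20 in growth plate cells and 11070 and 17020 in articular cells. The sum was thus higher at day 20 in both cartilages, and its part in these day differences was not tested.

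PSME4, PSMB3, PSMD14 and PSMD1 had the largest differences towards day 10. PSMD14, the deubiquitinase that strips chains from a substrate at the lid, had signals of 3218, 5679 and 3401 on the growth plate arrays and 5723, 4951 and 3189 on the articular arrays. Both cultures were higher at day 10 than at day 20, with native articular cartilage at the level of the day 10 cultures and native growth plate at that of day 20. The fitted day difference of PSMD14 was -0.69 ± 0.30 (adjusted p = 0.359). PSMB3 was likewise higher at day 10 in both cultures and differed by -0.88 ± 0.45 (adjusted p = 0.428). PSME4 differed by -0.97 ± 0.36 (adjusted p = 0.32). PSMD1, a scaffold of the base, had signals of 2041, 2955 and 2098 on the growth plate arrays and 2735, 3227 and 2181 on the articular arrays and differed by -0.53 ± 0.21 (adjusted p = 0.33). PSMB3 and PSMD14 were the 2 PSM genes at least 1.5-fold lower at day 20 in both cartilages, where 8.68% of all genes were.

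A fit to the 4 cultured arrays alone, with 1 residual and 12.3 prior degrees of freedom, compared the days without the native tissue. It called 258 of 5473 genes higher at day 20 (4.71%) and 251 lower (4.59%). Among PSM genes only PSME2 was called, higher at 1.22 ± 0.29 (adjusted p = 0.0126). With the adjusted p alone, 2 PSM genes were higher and 5 lower at day 20, where 8.86% and 9.37% of all genes were. These were PSME2 and PSME1 at 0.85 ± 0.23 (adjusted p = 0.0209), and on the lower side PSMD14 at -0.69 ± 0.15 (adjusted p = 0.00658), PSME4 at -0.97 ± 0.25 (adjusted p = 0.0179), PSMB3 at -0.88 ± 0.26 (adjusted p = 0.0311), PSMA2 at -0.46 ± 0.14 (adjusted p = 0.037) and PSMD1 at -0.53 ± 0.17 (adjusted p = 0.043). The share called is close to the background, so the count is no result about proteasome genes. PSME2 missed the threshold in the cultured fit under quantile normalization (adjusted p = 0.07), median centring (0.102) and averaged probe sets (0.102). PSME2 has 1 probe set, so averaging left its difference at 1.22. Over all genes the averaged and median-centred fits called 298 and 297, against 509 without these changes. Scaling on spiked controls left PSME2 at 0.97, under 2-fold, and called PSMB3 and PSME4 lower. Quantile normalization, median centring and averaged probe sets instead raised adjusted p in the cultured fit above the threshold for PSMB3, PSME4 and PSME1. In that order it was 0.069, 0.088 and 0.058 for PSMB3 and 0.071, 0.097 and 0.083 for PSME4. For PSME1 it was 0.059, 0.075 and 0.074. PSMD14 had 0.018, 0.065 and 0.043, above the threshold under median centring only.

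**Figure D3:**
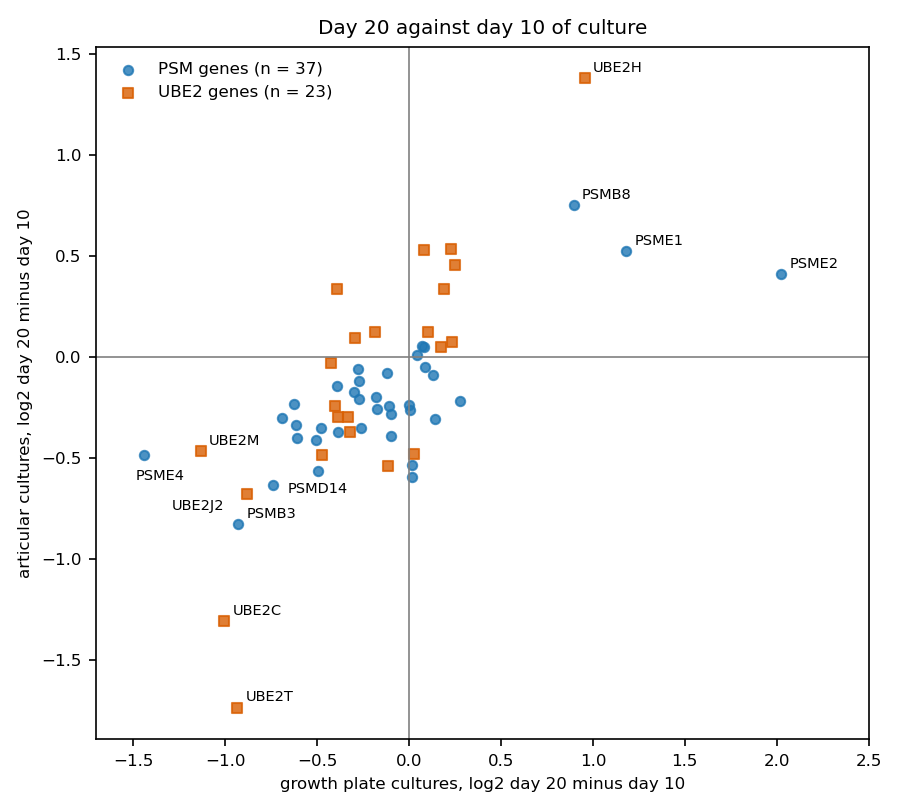
Each symbol is a tested gene's log2 signal at day 20 minus day 10, growth plate cultures on the horizontal axis and articular cultures on the vertical axis, 37 PSM genes as blue circles and 23 UBE2 genes as orange squares. PSME2, PSME1, PSMB8 and UBE2H lie in the upper right quadrant away from the rest, UBE2C and UBE2T lie lowest, and 24 PSM genes lie in the lower left quadrant.

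No ubiquitin-conjugating enzyme gene was called in the 6-array limma fit either. At an unadjusted p under 0.05, 3 of 23 were listed for tissue, 7 for culture and 3 for day, where 10.7%, 19.3% and 14.6% of all genes were, and the smallest adjusted p was 0.441, 0.147 and 0.167. The UBE2 genes were more variable than the PSM genes, with a median standard deviation of 0.31 and 11 of 23 genes at least 2-fold apart between their highest and lowest arrays, or 47.8%, against 56.7% of all genes. Their lowest array was native articular cartilage for 15 of 23, or 65.2%, against 27.6% of all genes. That count was 13 under quantile normalization, 8 under median centring and 17 under scaling on spiked controls. Of all genes, native articular cartilage was the lowest array for 1308 of 5598, 966 of 5598 and 2057 of 5620 under these settings.

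**Figure D4:**
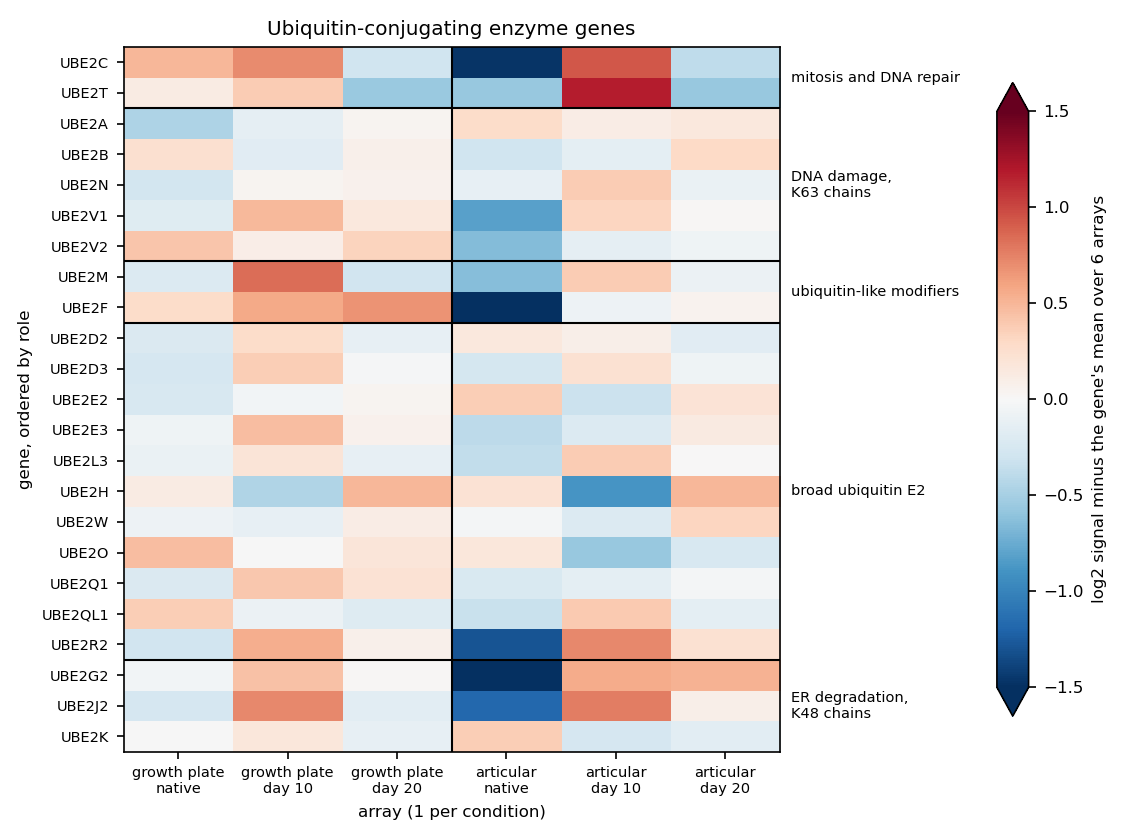
Colour shows each tested UBE2 gene's log2 signal minus its own mean over the 6 arrays, in order of role, with 1 column per array. The native articular column is the bluest, with a median of -0.34, and is the lowest array of 15 of the 23 genes, UBE2C, UBE2F, UBE2G2, UBE2R2 and UBE2J2 most of all.

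In native tissue the UBE2 genes leaned the opposite way from the proteasome genes. Their median log2 difference, growth plate minus articular, was 0.33, with 16 of 23 higher in growth plate, where 47.3% of all genes were higher. At least 2-fold higher were 4 of 23, against 12.9% of all genes. The medians were 0.13 at day 10 and 0.01 at day 20 of culture, and the cultured fit, with a median of 0.06, called no UBE2 gene by tissue. Quantile normalization gave a native median of 0.37 with 8 genes lower, median centring 0.04 with 10 lower, and scaling on spiked controls 0.62 with 4 lower. Of all genes, 3055 of 5598, 3733 of 5598 and 1964 of 5620 were lower under these settings. Setting the 2 families against each other does not depend on a common scale factor: the UBE2 median stood 0.70 above the PSM median in the native pair, and 0.66 above it after quantile normalization. That gap has no test, and the 2 families' genes share the same 2 arrays. The families also differ in brightness, with a median signal of 2722 for PSM and 1480 for UBE2 genes. In the native pair the median was -0.14 for the bright genes and -0.01 for all genes, and the part of brightness in the gap was not tested. Other groups also stood apart in the native pair. The median log2 difference was 1.82 for 10 mitotic genes, 1.71 for 4 fibroblast markers and -2.04 for the 1 endothelial marker tested. Of the fibroblast markers DCN went the other way, with 2379 in native growth plate and 3319 in native articular cartilage. Chaperones, at -0.61, and genes of interferon and antigen presentation, at -0.44, leaned with the proteasome genes. The part of these groups in the result was not tested.

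UBE2F, an E2 for NEDD8, led the tissue contrast. It had signals of 579, 713 and 766 on the growth plate arrays and 171, 456 and 497 on the articular arrays. Growth plate was higher at each stage, most in native tissue, and without either native array the fitted difference was 0.63. UBE2F was the only UBE2 gene at least 1.5-fold higher in growth plate in all 3 pairs, as 1.61% of all genes were. Over all 6 arrays the difference was 1.01 ± 0.32 (adjusted p = 0.441). UBE2M, the other NEDD8 enzyme, had 888, 1832 and 835 on the growth plate arrays and 658, 1328 and 961 on the articular arrays and a difference of 0.23 ± 0.22.

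UBE2C, UBE2V2 and UBE2O followed. UBE2C, the partner of the anaphase-promoting complex, had signals of 1760.5, 2033 and 1013 on the growth plate arrays and 446, 2372 and 956 on the articular arrays. Native growth plate was 3.94-fold above native articular cartilage, whereas at day 10 articular cells were the higher and at day 20 the log2 difference was 0.08, and the fitted difference was 0.61 ± 0.44 (adjusted p = 0.619). UBE2V2, an inactive partner of UBE2N, had 3468, 2798 and 3289.5 on the growth plate arrays and 1655, 2372 and 2491 on the articular arrays, higher in growth plate at each stage, with a difference of 0.57 ± 0.22 (adjusted p = 0.45). UBE2O, a large enzyme that joins E2 and ligase activity, had 2742, 1988 and 2269.5 on the growth plate arrays and 2241, 1342 and 1696 on the articular arrays. It too was higher in growth plate at each stage, with a difference of 0.43 ± 0.17 (adjusted p = 0.461).

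In native tissue 7 of 23 UBE2 genes were higher in articular cartilage, where 50.2% of all genes were. In culture the counts were 10 at day 10 and 11 at day 20, against 53% and 53.6% of all genes. UBE2A, a RAD6 homologue that modifies histones and acts in DNA damage tolerance, had signals of 1882, 2373 and 2681 on the growth plate arrays and 3141, 2807 and 2899 on the articular arrays. Articular cartilage was the higher at each stage, and the difference was -0.36 ± 0.19 (adjusted p = 0.528). Its near copy UBE2B had 2012, 1513 and 1802 on the growth plate arrays and 1389, 1535 and 2099 on the articular arrays, with the tissues overlapping and a difference of 0.10 ± 0.21. UBE2E2, UBE2N and UBE2W had tissue differences of -0.16 ± 0.23, -0.11 ± 0.17 and -0.06 ± 0.25, each smaller than its standard error, and all 3 were above 0 under scaling on spiked controls.

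In culture most UBE2 genes had a higher signal than in native tissue. The fitted median was 0.33 with 18 of 23 genes above 0, against 0.06 and 54.6% of all genes, and 0.27 without native articular cartilage. The median of single pairs was 0.30 and 0.10 for growth plate cells at day 10 and day 20, and 0.51 and 0.35 for articular cells, above 0 under each scaling tried. Muscle markers (4 of 5 on the array) summed to 163 (growth plate) and 88.6 (articular) before culture and to 442 to 566 in the 4 cultures, with 0 to 1 of them above the floor in native tissue and 2 to 4 in culture. CKM, a defining muscle marker, was above the floor on 1 array only. Fibroblast markers summed to 9655 and 5341 in the native arrays and 5108 to 21160 in the cultures. Chondrocyte markers summed to 37030 and 39900 in the native arrays and 29760 to 37660 in the cultures. Their median culture minus native difference was -0.43, with SOX9 at -2.08 and COMP, the only one above 0, at 0.54. Osteoclast markers (3 of 4 on the array) summed to 14850 and 17860 in the native arrays and 5822 to 8260 in the cultures. Most of each osteoclast sum was CTSK. The part of these marker lists in the result was not tested. Against native articular cartilage 8 of 23 genes were at least 2-fold higher at day 10 and 5 at day 20, where 16% and 14.9% of all genes were. Against native growth plate the counts were 1 and 0, where 7.41% and 4.59% of all genes were. As for the PSM genes, these pairs share the native arrays with the native tissue comparison and are not a second observation of it.

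Genes of several roles led the culture contrast. UBE2R2, a relative of CDC34 that works with cullin ligases, had signals of 344, 618 and 445 on the growth plate arrays and 173, 694 and 496 on the articular arrays. Both native arrays were below all 4 cultures, native articular the lowest, and the difference was 1.19 ± 0.35 (adjusted p = 0.172). UBE2J2, an E2 of degradation from the endoplasmic reticulum, had 563, 1105 and 599 on the growth plate arrays and 294, 1140.3 and 712 on the articular arrays, with both native arrays again lowest and a difference of 1.07 ± 0.32 (adjusted p = 0.175). UBE2G2, which serves the same pathway, had 99.6, 139 and 104 on the growth plate arrays and 34.3, 150.3 and 147 on the articular arrays. Its native articular signal was under the floor, so both articular cultures were at least 4.16-fold and at least 4.07-fold higher at day 10 and day 20, and the fitted difference of 1.16 ± 0.46 depends on the floor. UBE2F differed by 0.92 ± 0.34 (adjusted p = 0.226). UBE2V1, which like UBE2V2 pairs with UBE2N to build chains that signal, had 3928, 6232 and 4959 on the growth plate arrays and 2535, 5534 and 4502 on the articular arrays, both native arrays lowest, and the smallest adjusted p of the family in this contrast, at 0.74 ± 0.18 (adjusted p = 0.147). UBE2N itself had 2646, 3281 and 3338 on the growth plate arrays and 2922, 4169 and 2989 on the articular arrays and a difference of 0.30 ± 0.19.

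Against native articular cartilage UBE2C was 5.31-fold higher at day 10, and UBE2R2 4.02-fold. In growth plate cells at day 10 the same 2 genes were 1.16-fold and 1.79-fold higher. A fit without native growth plate called 5 UBE2 genes higher in culture, where it called 13.6% of all genes higher. They were UBE2C at 1.75 ± 0.25, UBE2F at 1.48 ± 0.31, UBE2G2, UBE2J2 at 1.61 ± 0.28 and UBE2R2 at 1.77 ± 0.31, with adjusted p between 0.00042 and 0.00442. For UBE2G2 that fit compares the cultures with a native signal under the floor, so its size is given only by the bounds above. A fit without native articular cartilage called none of the 23, where it called 3.9% of all genes.

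The lowest fitted culture differences were those of UBE2O, UBE2K, UBE2H and UBE2E2. UBE2O differed by -0.47 ± 0.18 (adjusted p = 0.239), with both native arrays above their own cultures. UBE2K, which builds chains for degradation, had 1994, 2244 and 1829 on the growth plate arrays and 2569, 1679 and 1789 on the articular arrays, highest in native articular cartilage, and differed by -0.27 ± 0.22. For UBE2H and UBE2E2 the values were -0.26 ± 0.21 and -0.10 ± 0.24. The day 20 cultures of UBE2H lay above both native arrays, and both growth plate cultures of UBE2E2 above native growth plate.

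Between day 10 and day 20 UBE2C and UBE2T fell and UBE2H rose in the fit to the 4 cultured arrays, which called 4.59% of all genes lower and 4.71% higher. UBE2T, an E2 of the Fanconi anaemia repair pathway, had signals of 833, 993 and 519.9 on the growth plate arrays and 516, 1722 and 516 on the articular arrays. The day 10 cultures were the 2 highest arrays and both day 20 cultures were at the level of native articular cartilage. UBE2T differed between the days by -1.34 ± 0.25 (adjusted p = 0.00304), and UBE2C by -1.16 ± 0.20 (adjusted p = 0.0017). In the 6-array fit the same differences had adjusted p of 0.259 and 0.392. UBE2C lost the call in the cultured fit with the mean of its probe sets (adjusted p = 0.121), and UBE2T with that mean (0.0552) and under median centring (0.0512). Both kept it under quantile normalization and under scaling on spiked controls.

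UBE2H, the E2 of a large ligase complex known from red cell maturation, had signals of 1529, 1021 and 1980 on the growth plate arrays and 1621, 758 and 1969.8 on the articular arrays. The day 10 cultures were the 2 lowest arrays and the day 20 cultures the 2 highest, in both cartilages. The difference was 1.17 ± 0.21 (adjusted p = 0.00222), and in the 6-array fit its adjusted p was 0.167. UBE2H kept the call under quantile normalization and median centring, was 0.92 and under 2-fold under scaling on spiked controls, and had an adjusted p of 0.0592 with the mean of its probe sets. Red cell markers (3 of 5 on the array) summed to 449 and 318 at day 10 and day 20 in growth plate cells. In articular cells they summed to 664 and 369, lower at day 20 in both cartilages. Only 1 of them, HBB, was above the floor in the cultures. It had 426 and 289 in growth plate cells and 610 and 342 in articular cells, most of each sum.

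With the adjusted p alone, 1 UBE2 gene was higher and 4 lower at day 20, where 8.86% and 9.37% of all genes were. Both ways together this was 21.7% of the 23 UBE2 genes, against 18.2% of all genes. The share is close to the background, so the count is no result about UBE2 genes. The 2 lower genes besides UBE2C and UBE2T were UBE2M at -0.80 ± 0.22 (adjusted p = 0.0256), and UBE2J2 at -0.78 ± 0.22 (adjusted p = 0.0283). UBE2J2 was at least 1.5-fold lower in both cartilages, as were UBE2C and UBE2T, where 8.68% of all genes were. UBE2W, UBE2B and UBE2E2 followed UBE2H upward in the 6-array fit, at 0.38 ± 0.31, 0.35 ± 0.26 and 0.30 ± 0.28. Family medians were -0.29 in growth plate cells and -0.03 in articular cells, with 14 and 12 of 23 genes lower, against 51.8% and 49.2% of all genes. The articular median was 0.01 under median centring, and the counts were 13 and 11 there, where 2440 and 2586 of all 5598 genes were lower. They were 15 and 12 under quantile normalization, where 2820 and 2805 of all 5598 genes were lower. Under scaling on spiked controls they were 22 and 17, where 4021 and 3425 of all 5620 genes were lower.

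**Figure D5:**
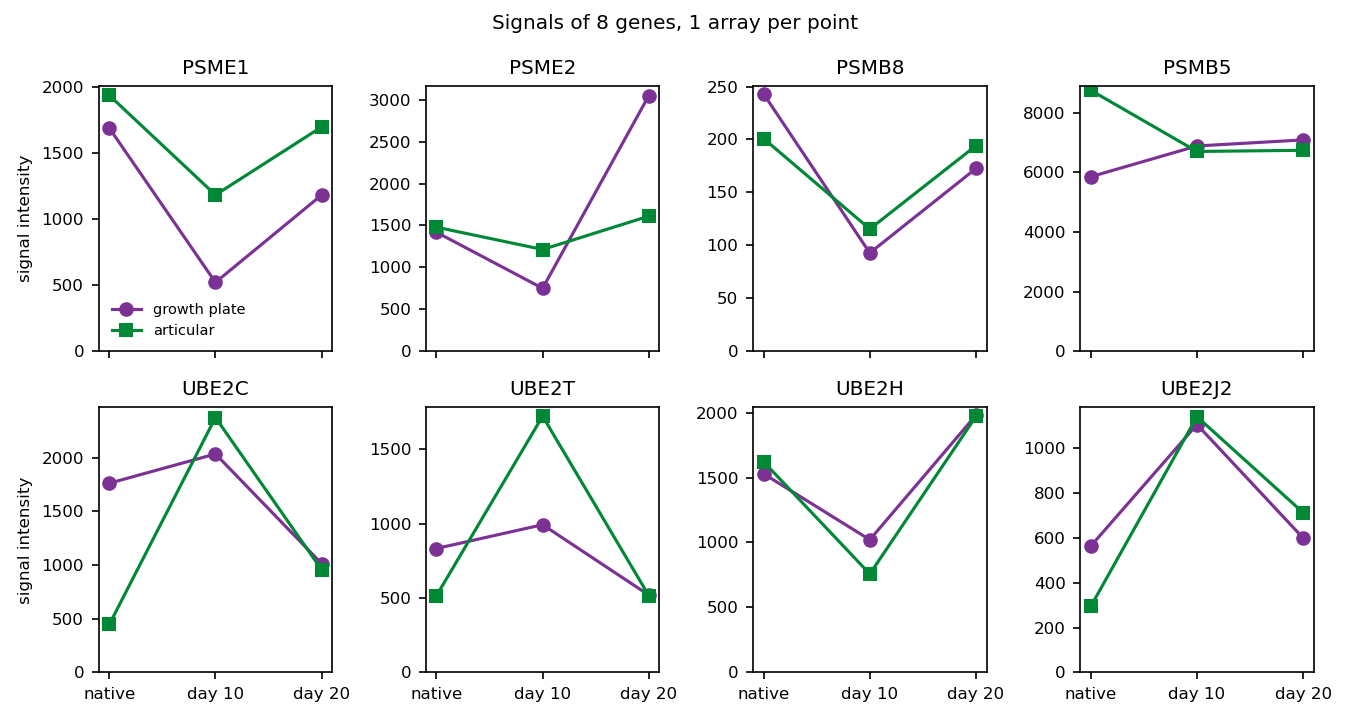
Signal intensity on a linear axis from 0 for 8 genes, 1 panel each, native, day 10 and day 20 from left to right, growth plate as purple circles and articular as green squares, 1 array per point. PSME1, PSME2, PSMB8 and UBE2H have their lower culture value at day 10 and UBE2C, UBE2T and UBE2J2 their higher one, in both cartilages, while PSMB5 runs from 5855 to 8754.

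Other genes of the ubiquitin system and of neighbouring pathways were counted from lists written with earlier results of these arrays known. In the 6-array fit no gene of the 10 lists was called in any contrast. In the cultured fit, 8 of 10 measured mitotic genes were called lower at day 20, with a list median of -1.52, where 4.59% of all genes were called lower. These were AURKA, AURKB, BIRC5, CCNB1, CCNB2, NEK2, PLK1 and TOP2A. TOP2A, which untangles DNA, had signals of 3221, 2344 and 692 on the growth plate arrays and 1145, 3626 and 932 on the articular arrays. Of 8 measured genes of the anaphase-promoting complex only CDC20, its activator, was called, lower at day 20, against the same 4.59%. CDC20 had signals of 1053, 1371 and 348 on the growth plate arrays and 62.0, 1369 and 389 on the articular arrays. UBE2C and CDC20 thus had the same lowest array, native articular cartilage, and both had higher signals at day 10 than at day 20.

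Among 10 measured genes of ubiquitin and ubiquitin-like activation, SAE1, a subunit of the SUMO-activating enzyme, was called lower at day 20 in the cultured fit, where 4.59% of all genes were. It had signals of 1197, 2183 and 1056 on the growth plate arrays and 2132, 3659 and 1737 on the articular arrays. The 2 subunits of the NEDD8-activating enzyme were not called. UBA3 had signals of 1539.6, 3003 and 1706 on the growth plate arrays and 1054, 2663 and 1660.3 on the articular arrays and NAE1 of 683, 1102 and 881 on the growth plate arrays and 602, 950.4 and 680.0 on the articular arrays, both highest at day 10 in each cartilage, as UBE2M was. CDC34, an E2 whose symbol lies outside the rule, had 1109, 1878 and 1619.8 on the growth plate arrays and 1697, 1607 and 1631 on the articular arrays.

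Of 9 measured ligases FBXO32, a ligase subunit known from muscle wasting, was called higher at day 20 in the cultured fit, where 4.71% of all genes were. It had signals of 604, 88.1 and 402 on the growth plate arrays and 198, 105 and 478 on the articular arrays, lowest at day 10 in both cartilages like UBE2H. Of 12 measured genes of interferon and antigen presentation IRF9 was called higher at day 20, against the same 4.71%, with signals of 79.9, 44.2 and 114 on the growth plate arrays and 18.9, 83.1 and 224 on the articular arrays. TAP1, the peptide transporter, had 1139, 164 and 130.2 on the growth plate arrays and 1582, 224 and 253 on the articular arrays, high in native tissue and low in all 4 cultures, and a culture difference of -2.85 with an adjusted p of 0.0724. PSMB8 and PSME1 were also higher in native tissue than at day 10, but unlike TAP1 had day 20 signals above those of day 10 in both cartilages. Over the 12 genes of interferon and antigen presentation the median culture minus native difference was -0.12. Of these genes 4 were at least 1.5-fold lower in culture and 3 at least 1.5-fold higher, among them MX1 at 1.53.

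No gene was called in the cultured fit among 5 measured assembly factors and inhibitors of the proteasome, 2 ubiquitin genes, 11 deubiquitinases, 4 genes of VCP and degradation from the endoplasmic reticulum, or 10 chaperones. Their day medians were 0.01, 0.14, -0.23, -0.28 and -0.11. UBB, a polyubiquitin gene, had 10773, 12785 and 12648 on the growth plate arrays and 17053, 12544 and 13907 on the articular arrays, and PSMF1, an inhibitor of the proteasome, had 372, 291 and 412 on the growth plate arrays and 288, 370.3 and 432 on the articular arrays.

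For 15 of the 61 genes the array holds several probe sets, and some of them disagreed. PSMC2, an ATPase, had a culture minus native difference of -0.16 with the probe set used and 0.96 and 0.82 with the other two. UBE2C had a second probe set close to the floor, with a day difference of -0.34 against -1.16. UBE2H had 0.57 against 1.17, UBE2T -0.82 against -1.34, and UBE2W -0.63 against 0.38. UBE2V1 had culture differences of 0.63 and -0.22 against 0.74. UBE2O had a culture difference of 0.075 against -0.47, UBE2A had -0.16 against 0.14 and a day difference of -0.52 against 0.11, and PSMD1 a tissue difference of 0.10 against -0.20. Of the 14 tested genes with further probe sets above the floor on at least 2 arrays, 4 had one of the opposite sign for tissue, 6 for culture and 4 for day.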

How the data were processed

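Total RNA of 6 porcine samples was hybridised to 6 Affymetrix arrays, 1 per condition. Each deposited value is a probe set's linear intensity, computed by the authors with GCOS 1.4, per the submitters' processing notes. Its scaling target is not given in the sources used here. Mean signals trimmed by 2% at each end had a highest to lowest ratio of 1.000045, and no normalization was added. Arrays give no depth, and their small number limits the precision.

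Of 24123 probe sets 124 were controls. Intensities below 36.1, the 40th percentile of the other 23999, were set to that floor before log2 transformation. The platform annotation gave 1 symbol to 10069 probe sets, several to 198 and none to 13732, and only the first kind was used. RefSeq tables of Sscrofa11.1 served for names and gene order, and 60 of the 61 member symbols matched. A gene had to exceed the floor on at least 2 arrays. limma 3.58.1 in R 4.3.3 fitted tissue plus stage with an intensity trend, on 2 residual degrees of freedom and 3.78 from the prior. The code was tested on simulated data. Single arrays were compared without a test.

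Named genes were, per contrast and family, the called members and the 4 each way with the largest difference, members at least 4-fold apart between single arrays, members fixed by role, and up to 3 genes per pathway list and contrast. PSMA2, PSMC2, CDC34, AURKB and BIRC5 fall outside that rule and were named after their values were seen. The members and lists were chosen with earlier results of these data known. Alternatives were quantile normalization, median centring, floors at the 25th and 60th percentiles, a pseudocount of 32, other filters on low signals, averaged probe sets, no intensity trend, the 4 cultured arrays only, and leaving out each array. Scaling on 9 spiked controls, and the cultured fit under other scalings, were added after seeing the data.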

Additional observations from a re-analysis of the deposited data

Results flagged for a closer look

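The median culture minus native log2 difference of the 37 PSM genes was above 0 in both growth plate cultures, at 0.28 on day 10 and 0.0977 on day 20, and below 0 in both articular cultures, at -0.0663 and -0.27. The 1838 genes with a mean signal of at least 1000 had medians of the same signs. These were 0.0219 and 0.048 in the growth plate cultures and -0.0687 and -0.0874 in the articular cultures. The difference between the cartilages was not tested. Under scaling on spiked controls the 4 medians were 0.52, 0.01, 0.13 and -0.23, so that articular day 10 changed sign. Each pair of medians shares its native array.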

How the results depend on the processing

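No paired analysis was possible because the labels carry no replicate numbers and each condition has 1 array. Over the fits that each leave out 1 array, the PSM median for day ranged from -0.32 to -0.0943. Called members ranged from 0 to 1 (PSM) and 0 to 5 (UBE2) for culture and from 0 to 1 and 0 to 3 for day, with member calls only in fits without a native array. Of all genes, the fit without native growth plate called 1165 of 5556 for culture and 499 for day, and that without native articular cartilage 216 of 5536 and 507. The cultured arrays alone called 1 PSM and 3 UBE2 genes for day. Scaling on spiked controls, which shifted the median of all genes by 0.25 for tissue and -0.23 for day, moved the fitted tissue medians from -0.17 to 0.0949 (PSM), a change of sign, and from 0.12 to 0.38 (UBE2), and the day medians from -0.22 to -0.46 and from -0.23 to -0.47. Median centring, which shifted all genes by 0.0808 for day and -0.16 for culture, gave a PSM day median of -0.14. Single genes also turned direction. By tissue, the cultured arrays gave -0.0011 for PSMD5, 0.0143 for PSMB3, -0.0693 for UBE2C and 0.0595 for UBE2E2. Spiked controls gave 0.21 for UBE2W, 0.15 for UBE2N and 0.10 for UBE2E2 by tissue and -0.18 for PSMD10 by day, and averaged probe sets -0.13 for UBE2W by day. Without single arrays the tissue difference ranged from -0.0011 to 0.45 for PSMD5, -0.0287 to 0.64 for PSMD4, -0.73 to 0.0143 for PSMB3, -0.0693 to 1.03 for UBE2C, -0.13 to 0.0214 for UBE2W, -0.24 to 0.0082 for UBE2N and -0.38 to 0.0595 for UBE2E2. The culture difference ranged from -0.43 to 0.23 for UBE2E2 and -0.57 to 0.0232 for UBE2K, and the day difference of UBE2E2 from -0.0286 to 0.64. The cause was not tested. Of 511 single-gene values under settings that leave out no single array, 498 kept their direction and their side of the threshold, 4 passed the threshold and 9 turned direction. Of 288 values in the fits without 1 array these counts were 256, 14 and 18.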
